A study of Homo sapiens with 32 samples.

Results

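The genes described here are 10 genes of cellular zinc handling, taken by name from the 48804 Ensembl genes counted: the metallothioneins MT1E, MT1F, MT1G, MT1M, MT1X and MT2A, the transcription factor MTF1, the zinc exporter SLC30A1 and the zinc importers SLC39A6 and SLC39A10. They were followed through all 32 libraries of an RNA-seq experiment in MDA-MB-468, an established triple-negative breast cancer line. Cultures were given PBS (control), salinomycin at 0.5 µM (Sal), dasatinib at 15 µM (Das) or the same doses of the pair combined (S + D). RNA was collected at 24 h or 72 h, with 4 libraries from biological replicates in each of the 8 conditions. In every condition 3 of the 4 libraries carry a replicate number and 1 carries none. Sal is an ionophore that carries monovalent cations across membranes, and Das is an inhibitor of kinases of the SRC and ABL families. All the data come from this 1 line in culture.

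Metallothioneins are small cysteine-rich proteins that bind zinc and copper in the cytosol. When free zinc rises, the zinc-finger factor MTF1 binds metal response elements (MREs) in the promoters of the metallothionein genes and of SLC30A1 and raises their transcription. SLC30A1 (ZnT1) moves zinc out across the plasma membrane, and SLC39A6 (ZIP6) and SLC39A10 (ZIP10), close relatives within the ZIP family, move zinc into the cytosol. Metallothionein transcription also responds to glucocorticoids and to oxidative stress.

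The 6 metallothionein genes lie in a cluster on chromosome 16 between MT2A (GRCh37 chr16:56642496-56643409) and MT1X (chr16:56716382-56718108), and the files give their Ensembl identifiers as ENSG00000169715 (MT1E), ENSG00000198417 (MT1F), ENSG00000125144 (MT1G), ENSG00000205364 (MT1M), ENSG00000187193 (MT1X) and ENSG00000125148 (MT2A). MTF1 (ENSG00000188786) and SLC30A1 (ENSG00000170385) are on chromosome 1, at chr1:38275246-38325264 and chr1:211744910-211752503. SLC39A10 (ENSG00000196950) is on chromosome 2, at chr2:196440701-196602426, and SLC39A6 (ENSG00000141424) on chromosome 18, at chr18:33688494-33709348. The values are counts over the exons of whole genes, so no single exon or UTR was measured.

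The promoters below are shown because the MRE is the DNA letter pattern through which MTF1 reaches its targets. They are RefSeq sequences of GRCh38.p14, from 250 bases before to 50 after the annotated start, which match GRCh37 exactly at chr16:56642246-56642545 on the plus strand (MT2A), chr16:56716132-56716431 on the plus strand (MT1X) and chr1:211752454-211752753 on the minus strand (SLC30A1). Capitals mark every match to the MRE core, TGCACNC or TGCGCNC, on either strand.
MT2A: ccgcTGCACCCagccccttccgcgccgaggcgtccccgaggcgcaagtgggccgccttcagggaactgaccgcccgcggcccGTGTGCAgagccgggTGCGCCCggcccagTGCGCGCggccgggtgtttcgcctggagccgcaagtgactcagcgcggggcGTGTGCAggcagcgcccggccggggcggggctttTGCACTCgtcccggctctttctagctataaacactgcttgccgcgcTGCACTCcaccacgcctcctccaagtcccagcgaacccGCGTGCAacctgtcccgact
MT1X: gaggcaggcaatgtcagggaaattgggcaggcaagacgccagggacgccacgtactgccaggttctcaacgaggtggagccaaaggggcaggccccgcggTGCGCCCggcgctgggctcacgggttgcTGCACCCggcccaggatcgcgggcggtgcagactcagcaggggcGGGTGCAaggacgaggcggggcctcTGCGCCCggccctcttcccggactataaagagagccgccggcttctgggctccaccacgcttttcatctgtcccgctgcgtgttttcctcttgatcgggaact
SLC30A1: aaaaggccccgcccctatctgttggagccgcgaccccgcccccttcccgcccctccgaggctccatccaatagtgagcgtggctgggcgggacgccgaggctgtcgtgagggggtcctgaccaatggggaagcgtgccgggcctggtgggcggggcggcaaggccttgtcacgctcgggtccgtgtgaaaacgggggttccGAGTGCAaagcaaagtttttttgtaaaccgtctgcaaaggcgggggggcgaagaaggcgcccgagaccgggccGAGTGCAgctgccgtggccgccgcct
MT2A held 8 matches, MT1X 4 and SLC30A1 2. Of 35116 RefSeq promoters of the same length, 29.6% held at least 1 match, 8.6% at least 2, 0.601% at least 4 and 0.0199% at least 8. SLC39A6 held 1 match, the earlier of the 2 annotated starts of SLC39A10 held 0 and the later 1, and MTF1 held 0. A separate pattern, TGACNNNGC, the core of the antioxidant response element, occurred 1 time each in the promoters of MT2A, MT1X and SLC30A1 and in 13.3% of all promoters, and overlapped none of the MRE matches. These are letter matches in a short window, and binding was not measured.

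Totals ran from 25692561 to 42769687 counts per library (median 33301486.5), and no 2 libraries were identical. The line's own markers EGFR, KRT19 and EPCAM were high in every group and PGR was near 0, while markers of leukocytes (PTPRC and CD3E) were at or near 0. RB1 and SMAD4, both lost in this line, were at 1.28 CPM or less in every group mean. Among fibroblast markers, COL1A1 was present and COL1A2, COL3A1 and DCN were near 0. The unnumbered libraries deviated together from their groups, with correlations across genes of 0.61 to 0.69 between unnumbered libraries of different groups at 24 h and 0.53 to 0.63 at 72 h. The labels do not say what sets them apart, so results that rest on them are given with and without them.

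Expression levels are in CPM, read counts adjusted for each library's total and its TMM factor, and are printed as mean ± SD of 4 libraries. A gene was called at an adjusted p under 0.01 (edgeR quasi-likelihood test, Benjamini-Hochberg adjustment over all genes tested), and the share of all tested genes called the same way stands beside each first count. The treatments of 1 time point share their 4 control libraries. In bulk RNA, fewer cells expressing a gene and less of its RNA per cell cannot be told apart.

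Of the 10 genes, 8 passed the filter on low counts. MT1G had 7 counts in all, spread over 6 of the 32 libraries with at most 2 in any, and MT1M had 0 counts in every library, where 3 counts would correspond to 0.0705 to 0.113 CPM. Of the other 13 metallothionein genes and pseudogenes listed (MT1A, MT3 and others), 0 passed the filter. Metallothionein RNA of these cells was thus counted on 4 genes.

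Per kilobase of exon, MT2A was the most abundant of the 8 genes in every condition, at 602 CPM per kb in the 24 h control and 470 in the 72 h control. MT1X followed at 49.5 and 70.6 CPM per kb. SLC39A6 (18.7 and 17.5), MT1E (16.9 and 16.8) and MTF1 (16.2 and 15.6) lay close together in both controls. SLC30A1 (9.67 and 11.1) and MT1F (8.27 and 12.3) were lower, and SLC39A10 was lowest at 2.02 and 2.86. The lengths join every exon annotated for a gene, and for MT2A (914 bases) and MT1X (1727 bases) they equal the whole gene. Where the mRNA is shorter than that, the level per kilobase is understated. The order of the genes therefore depends on this annotation, which may not be the one used for counting. The metallothioneins are near-identical in their coding parts, and the reads were 50 bases long, so reads can be shared or lost between them. Of all 50-base stretches in their exons, 14% of MT1E, 4.97% of MT2A, 2.03% of MT1X and 0.741% of MT1F recur elsewhere in GRCh37, and 0% of those of the 3 transporters do. These stretches were cut within the joined exons, for MT2A and MT1X the whole gene. Stretches across exon junctions were not examined. The percentages are therefore not the shares of mRNA reads that could be misplaced, which were not measured. Exons of MT1X also overlap another annotated gene over 18.6% of their bases, and exons of SLC39A6 over 6.16%, and whether the counting used strand is not given in the sources used here. Values of all the single metallothioneins carry that uncertainty.

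MT2A, the main metallothionein of these cells, was lower than control in both single-drug groups at 72 h and lowest with S + D at 24 h. At 24 h, MT2A measured 504, 549, 569 and 579 CPM in the control libraries (unnumbered first, then replicates 1 to 3, an order kept throughout). Sal libraries held 389, 443, 333 and 455, Das libraries 192, 214, 201 and 207, and S + D libraries 159, 116, 112 and 124 CPM. The 4 groups did not overlap one another at 24 h. The log2 fold change against control was -0.45 ± 0.11 (SE) with Sal (adjusted p = 0.014, not called), -1.41 ± 0.12 with Das (adjusted p = 5.19e-07) and -2.07 ± 0.12 with S + D (adjusted p = 3.88e-09). Numbered libraries alone put the Sal value at -0.45 ± 0.08 (adjusted p = 0.00038), which is a call.

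At 72 h the order of the groups was another one. MT2A measured 452, 371, 370 and 525 CPM in the control, 163, 193, 159 and 144 in Sal, 176, 103, 101 and 180 in Das and 224, 274, 227 and 237 in S + D libraries. Every treated library lay below every control library, and the S + D libraries lay above all those with Sal or Das alone. The log2 fold change was -1.40 ± 0.19 with Sal (adjusted p = 5.01e-06), -1.63 ± 0.19 with Das (adjusted p = 9.54e-06) and -0.85 ± 0.19 with S + D (adjusted p = 0.000597). Over the 8 conditions the mean levels of MT2A ran from the 24 h control (550 ± 33.4 CPM, n = 4) through the 72 h control (430 ± 74.5), Sal at 24 h (405 ± 56.1), S + D at 72 h (241 ± 23.1), Das at 24 h (204 ± 9.28), Sal at 72 h (165 ± 20.9) and Das at 72 h (140 ± 44) to S + D at 24 h (128 ± 21.6). In that order, neighbouring groups overlapped in range except at the steps from Sal at 24 h to S + D at 72 h and from S + D at 72 h to Das at 24 h.

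MT1X, the next most abundant metallothionein, was lower with Das at both times but not with Sal. At 24 h it measured 64.8, 89.6, 98 and 89.8 CPM in the control, 99, 82.1, 70.1 and 85.4 in Sal, 42, 52.5, 53.8 and 48.3 in Das and 56.2, 39.1, 39.8 and 39.8 in S + D libraries. The Das and S + D libraries all lay below the control, and the Sal libraries overlapped it. The log2 fold change was -0.04 ± 0.15 with Sal (adjusted p = 0.919), -0.78 ± 0.15 with Das (adjusted p = 0.00107) and -0.93 ± 0.15 with S + D (adjusted p = 9.13e-05). At 72 h the libraries measured 85.6, 125, 126 and 150 CPM in the control, 93.4, 175, 148 and 132 in Sal, 54.7, 52.3, 45 and 58.2 in Das and 115, 199, 156 and 164 in S + D libraries. Only the Das libraries stood clear of the control at 72 h, at -1.22 ± 0.20 (adjusted p = 0.000219). S + D stood at 0.36 ± 0.20 (adjusted p = 0.115) and Sal at 0.15 ± 0.20 (adjusted p = 0.512), neither called.

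MT1E varied less. At 24 h it measured 16.2, 18.7, 18.1 and 18.4 CPM in the control, 18.4, 16.9, 18 and 18.8 in Sal, 16.3, 14.8, 13.1 and 16.9 in Das and 14.5, 12.6, 12.6 and 12.8 in S + D libraries. S + D was called, at -0.41 ± 0.10 (adjusted p = 0.00233), and Das, at -0.20 (adjusted p = 0.14), only with the numbered libraries alone (-0.27 ± 0.08, adjusted p = 0.0085). At 72 h the control held 15.7, 19.6, 18 and 17.6 CPM, Sal 13.4, 12.5, 15.4 and 14.9, Das 14.6, 12.1, 12.7 and 14.7, and S + D 21.5, 32.2, 22.4 and 22.9 CPM. Both single drugs lay wholly below the control and S + D wholly above it, but only S + D was called, at 0.47 ± 0.14 (adjusted p = 0.00699), against -0.35 ± 0.14 with Sal (adjusted p = 0.0372) and -0.40 ± 0.14 with Das (adjusted p = 0.037). The S + D call was lost when S + D replicate 1, at 32.2 CPM, was left out (log2 fold change 0.32, adjusted p = 0.0326), with the numbered libraries alone (0.47 ± 0.15, adjusted p = 0.0129), and also without the unnumbered control library, control replicate 2 or control replicate 3.

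MT1F stood on the other side of the control from MT2A and MT1X with Das and S + D at 24 h, and its calls there depended on the fit. It measured 18.3, 13.8, 14.7 and 14.5 CPM in the 24 h control, 24.1, 12.9, 12.3 and 14.5 in Sal, 40, 25, 21.1 and 26.8 in Das and 35.4, 19.2, 18 and 19.3 in S + D libraries. The unnumbered library was the highest of its group in 8 of 8 groups for this gene. With all libraries the log2 fold change was 0.90 ± 0.25 with Das (adjusted p = 0.0155) and 0.62 ± 0.25 with S + D (adjusted p = 0.055), and with the numbered libraries alone 0.80 ± 0.09 (adjusted p = 4.04e-07) and 0.41 ± 0.09 (adjusted p = 0.000376). With the unnumbered libraries kept, Das was also called by DESeq2, in 1 fit of all 32 libraries and with only the groups compared. It was not called with DESeq2's size factors in edgeR or without the filter on low counts. S + D was called only with the numbered libraries alone or with a fitted term for replicates or for the unnumbered libraries. No fit with 1 library left out called either. At 72 h MT1F measured 26, 20.4, 20.5 and 24.5 CPM in the control, 25.2, 18.8, 20.1 and 18.2 in Sal, 40.4, 24.3, 21.2 and 24.1 in Das and 43.8, 42.5, 30.3 and 30.8 in S + D libraries. The S + D libraries lay above all 4 controls and were called at 0.67 ± 0.19 (adjusted p = 0.00526). Leaving out control replicate 1, control replicate 2, the unnumbered S + D library or S + D replicate 1 ended this call, at adjusted p values up to 0.0194, as did 1 fit of all 32 libraries (adjusted p = 0.011).

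**Figure D1:**
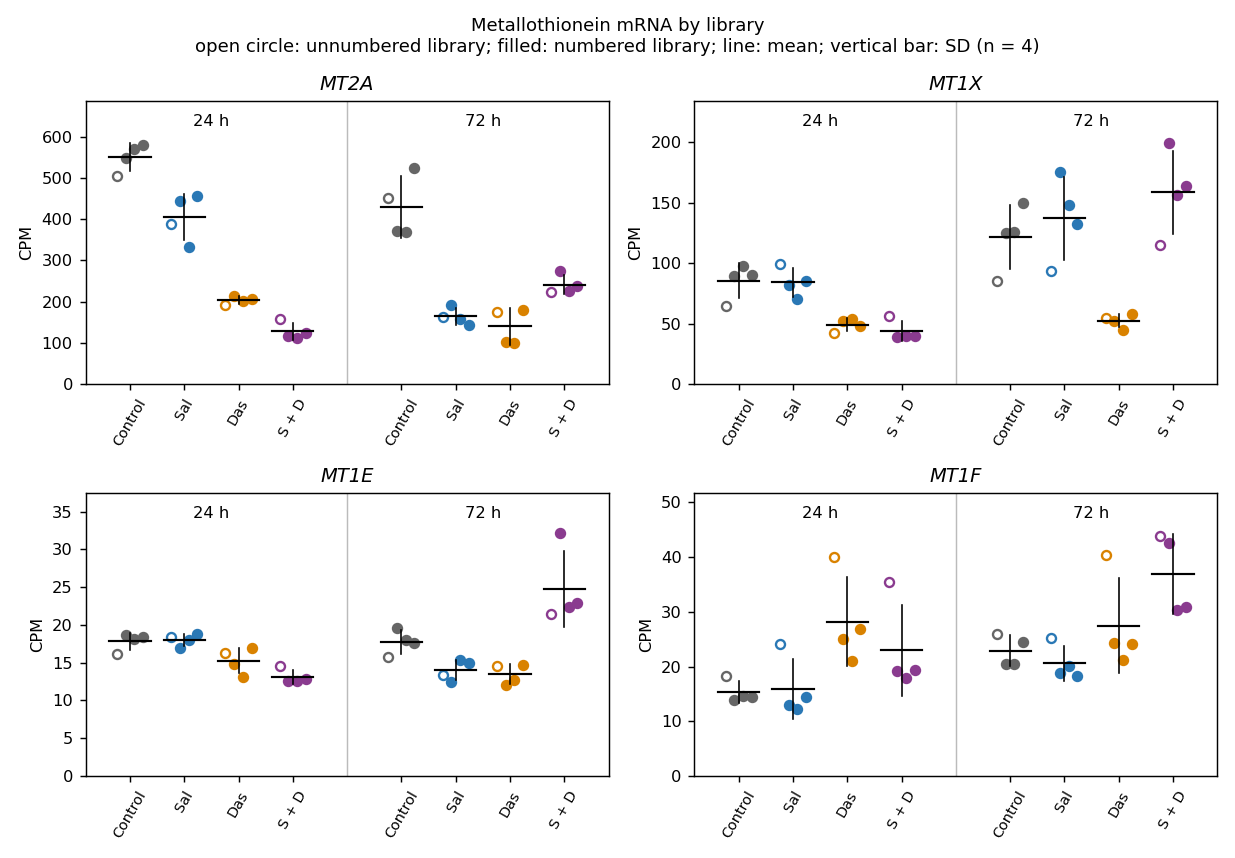
CPM (linear axis from 0) of MT2A, MT1X, MT1E and MT1F in each of the 32 libraries, by treatment at 24 h and 72 h, with the unnumbered library of a group as an open circle, the mean as a line and the SD (n = 4) as a vertical bar. MT2A falls from 550 CPM in the control to 128 with S + D at 24 h but stands at 241 with S + D at 72 h, above both single drugs and below the 72 h control (430).

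Summed over the 4 expressed metallothionein genes, the RNA measured 669 ± 46.1 CPM in the 24 h control, 523 ± 62.5 under Sal, 296 ± 8.07 under Das and 208 ± 39 under S + D (n = 4 each). At 72 h the sum was 592 ± 86.4 CPM in the control, 336 ± 46.7 under Sal, 234 ± 55.6 under Das and 461 ± 61.5 under S + D. Fitted as 1 feature with all 6 genes together, a sum that does not depend on how reads were divided among these paralogs, the log2 fold change was -0.37 ± 0.11 with Sal (adjusted p = 0.0407), -1.15 ± 0.12 with Das (adjusted p = 3.55e-06) and -1.65 ± 0.12 with S + D (adjusted p = 2.56e-08) at 24 h. At 72 h it was -0.83 ± 0.16 with Sal (adjusted p = 0.000244), -1.35 ± 0.17 with Das (adjusted p = 1.62e-05) and -0.38 ± 0.16 with S + D (adjusted p = 0.048, not called).

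The composition of the sum differed as well. MT2A made up 82.3% ± 0.97 of the summed CPM in the 24 h control, 77.3% ± 2.98 under Sal, 68.7% ± 1.71 under Das and 61.7% ± 1.33 under S + D, and the ranges of the 4 groups did not overlap. At 72 h its share was 72.4% ± 4.19 in the control, 49.1% ± 4.16 under Sal, 59.1% ± 5.12 under Das and 52.4% ± 2.20 under S + D, all treated libraries lying below the control. MT1X made up 20.7% ± 4.11 of the sum in the 72 h control, 40.4% ± 5.79 with Sal and 34.1% ± 3.80 with S + D, and with Das 23.1% ± 3.71, a mean within the range of the control. No test was run on these shares.

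**Figure D2:**
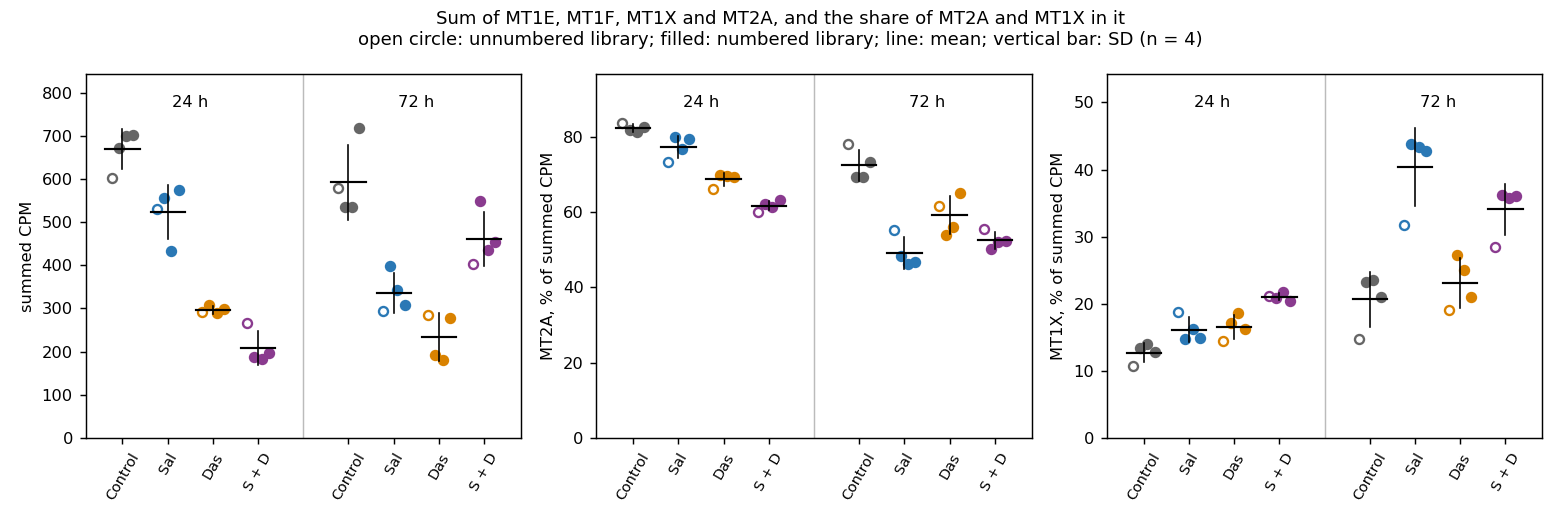
Summed CPM of MT1E, MT1F, MT1X and MT2A in each library (left) and the percent of that sum made up by MT2A (middle) and MT1X (right), by treatment and time, with open circles for unnumbered libraries, lines for means and vertical bars for SD (n = 4). The MT2A share steps down from 82.3% to 61.7% across the 24 h groups, and the MT1X share is 20.7% in the 72 h control and 40.4% with Sal.

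MTF1, the zinc sensor that drives metallothionein transcription, was not called at 24 h. Its RNA measured 112, 133, 137 and 135 CPM in the 24 h control, 132 to 138 in Sal, 85.1 to 136 in Das and 134 to 150 in S + D libraries, and its log2 fold changes of 0.06, -0.11 and 0.13 (SE 0.12 each) had adjusted p values of 0.396 or more. At 72 h MTF1 measured 114, 130, 122 and 131 CPM in the control, 161, 192, 187 and 196 in Sal, 122, 146, 141 and 132 in Das and 165, 129, 196 and 200 in S + D libraries. The Sal libraries all lay above the control, at a log2 fold change of 0.55 ± 0.13 (adjusted p = 0.00106), in the group where MT2A was lower. With S + D, where replicate 1 lay among the controls, the value was 0.45 ± 0.13 (adjusted p = 0.00426), and the call was lost with the numbered libraries alone (0.43 ± 0.14, adjusted p = 0.0129) and without the unnumbered control library, S + D replicate 2 or S + D replicate 3. Das gave 0.11 ± 0.13 (adjusted p = 0.539).

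SLC30A1, the exporter and itself an MTF1 target, was higher with S + D at 24 h, where MT2A, MT1X and MT1E were lower. It measured 55.9, 59.6, 57.8 and 54.8 CPM in the 24 h control, 57.4, 62.8, 72.5 and 62.3 in Sal, 59.3, 70.1, 75.7 and 76.4 in Das and 63.5, 77.1, 77.8 and 72.6 in S + D libraries. The S + D libraries lay clear of the control and were called at 0.39 ± 0.10 (adjusted p = 0.00563), but leaving out any 1 library other than the unnumbered S + D library ended the call, at adjusted p values up to 0.0242. Das stood at 0.32 ± 0.10 (adjusted p = 0.0296), and with the numbered libraries alone at 0.40 ± 0.06 (adjusted p = 3.05e-05). At 72 h SLC30A1 measured 63.2, 68.9, 67.9 and 62.7 CPM in the control, 45.3, 57.5, 67.7 and 68.1 in Sal, 79.3, 81.5, 91.8 and 97.1 in Das and 54.1, 44.4, 54.2 and 54.3 in S + D libraries. The Das libraries lay above every control and the S + D libraries below every control, at 0.41 ± 0.13 (adjusted p = 0.0198) and -0.36 ± 0.13 (adjusted p = 0.019), neither called. With the numbered libraries alone both were called, at 0.43 ± 0.12 (adjusted p = 0.00941) and -0.40 ± 0.12 (adjusted p = 0.0063).

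The importers SLC39A6 and SLC39A10 differed from each other. SLC39A10 was lower in all 6 treated groups, and called in 4. At 24 h it measured 14.9, 14.6, 13.1 and 13.5 CPM in the control, 7.15, 10.1, 12.6 and 9.27 in Sal, 6.8, 9.78, 9.27 and 10.6 in Das and 4.13, 6.69, 6.45 and 6.97 in S + D libraries. Every treated library lay below every control library. The log2 fold change was -0.52 ± 0.19 with Sal (adjusted p = 0.0773), -0.60 ± 0.19 with Das (adjusted p = 0.0303) and -1.17 ± 0.19 with S + D (adjusted p = 0.00013). With the numbered libraries alone, Sal (-0.35 ± 0.10, adjusted p = 0.00875) and Das (-0.44 ± 0.10, adjusted p = 0.00114) were called too.

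At 72 h SLC39A10 measured 18.7, 20.9, 20.8 and 18.6 CPM in the control, 8.61, 7.81, 9.2 and 9.81 in Sal, 8.84, 8.61, 11.5 and 12.9 in Das and 4.18, 3.94, 4.74 and 5.07 in S + D libraries. The S + D libraries lay below those of each single drug, which lay below the control. The log2 fold change was -1.17 ± 0.15 with Sal (adjusted p = 2.59e-06), -0.92 ± 0.15 with Das (adjusted p = 0.000174) and -2.15 ± 0.15 with S + D (adjusted p = 7.17e-09). In order, the means ran from the 72 h control (19.8 CPM) through the 24 h control (14), Das at 72 h (10.5), Sal at 24 h (9.79), Das at 24 h (9.12), Sal at 72 h (8.86) and S + D at 24 h (6.06) to S + D at 72 h (4.48). Neighbouring groups overlapped between Das at 72 h and Sal at 72 h, and between S + D at 24 h and S + D at 72 h, and the other 3 steps did not.

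SLC39A6 measured 59.1, 75.3, 71.4 and 70.3 CPM in the 24 h control, and the treated libraries at 24 h overlapped it (46.8 to 75.1 CPM), with log2 fold changes no further from 0 than -0.25 and no call with all libraries. The numbered libraries alone gave a call with Das, at -0.22 ± 0.06 (adjusted p = 0.00341). At 72 h it measured 55, 71.2, 67.4 and 64 CPM in the control, 80.4, 93.9, 102 and 109 in Sal, 54.5, 82, 91.5 and 73.3 in Das and 71.8, 88.9, 85.9 and 86.2 in S + D libraries. The libraries with Sal and with S + D lay above the control, at 0.57 ± 0.14 (adjusted p = 0.00241) and 0.35 ± 0.14 (adjusted p = 0.0392, not called). The Sal call was lost without the unnumbered control library (adjusted p = 0.0106) or Sal replicate 3 (adjusted p = 0.0108), and S + D was called with the numbered libraries alone (0.35 ± 0.10, adjusted p = 0.00807). The unnumbered library was the lowest of its group in 8 of 8 groups for SLC39A6.

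**Figure D3:**
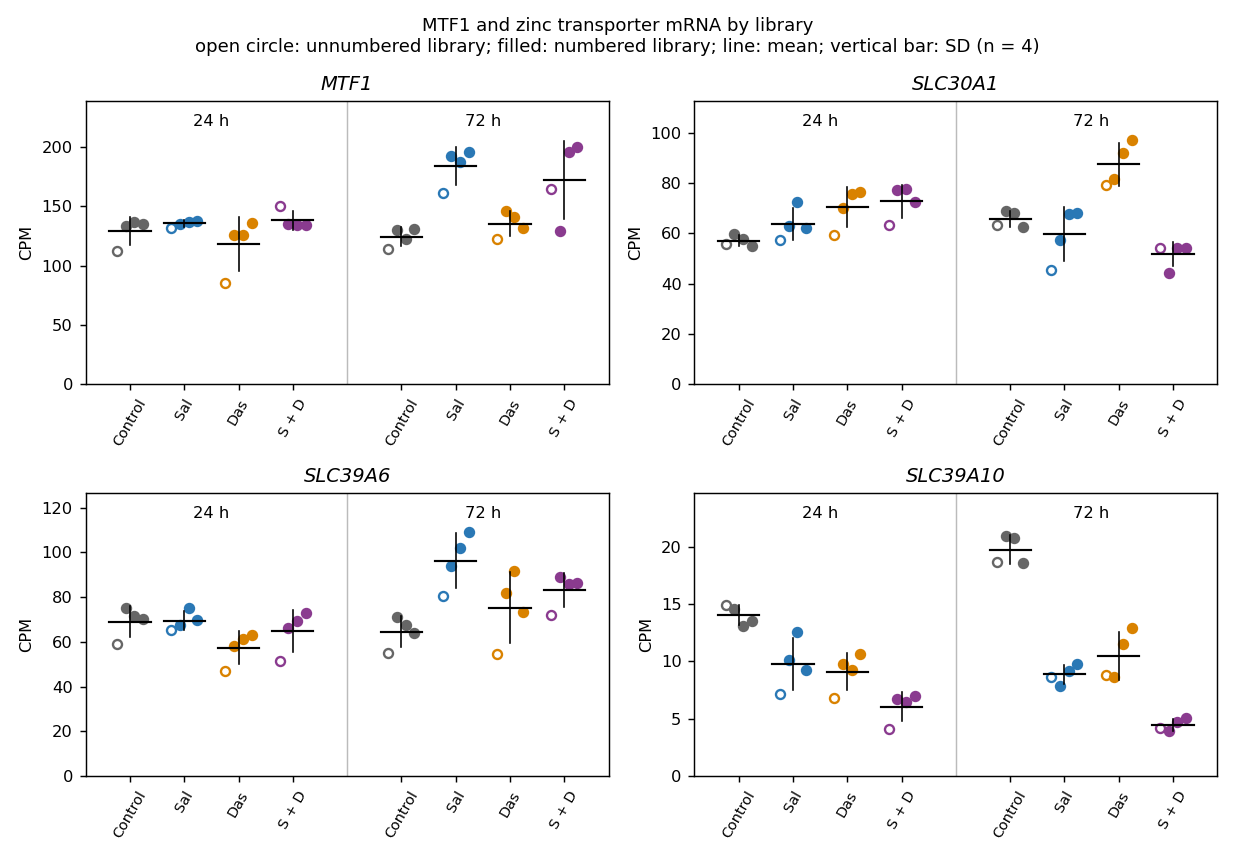
CPM (linear axis from 0) of MTF1, SLC30A1, SLC39A6 and SLC39A10 in each library, by treatment and time, with open circles for unnumbered libraries, lines for means and vertical bars for SD (n = 4). SLC39A10 is lower in every treated group, down to 4.48 CPM with S + D at 72 h, while SLC39A6 stands at 96.4 CPM with Sal at 72 h against 64.4 in the control.

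Counted over the 8 tested genes, Sal at 24 h raised 0 and lowered 0, where it raised 4.55% and lowered 2.23% of all genes tested (numbered libraries alone, 0 higher and 2 lower, MT2A and SLC39A10, where 23.5% of all genes were called in either direction). At an unadjusted p under 0.05, MT2A and SLC39A10 passed, and DESeq2 called 1. Das at 24 h lowered 2 (MT1X and MT2A) and raised 0, where it lowered 6.88% and raised 6.99% of all genes, and 2 and 5 of the 8 were higher and lower with the numbered libraries alone, where 39.3% of all genes were called. S + D at 24 h raised 1 and lowered 4 (17.1% and 16.5% of all genes). At 72 h Sal raised 2 and lowered 2 (26.3% and 26.8% of all genes), Das raised 0 and lowered 3 (10.5% and 9.36%), and S + D raised 3 and lowered 2 (27% and 27.9%). Groups did not overlap for 2, 4 and 5 of the 8 with Sal, Das and S + D at 24 h, where this held for 22.5%, 29.4% and 46.6% of all genes, and for 5, 5 and 6 at 72 h, where it held for 59.6%, 28.7% and 61.3%. With Sal and with S + D at 72 h the members' shares lie close to those of all genes. The median log2 fold change over all tested genes was between -0.02 and 0.04 in these comparisons.

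**Figure D4:**
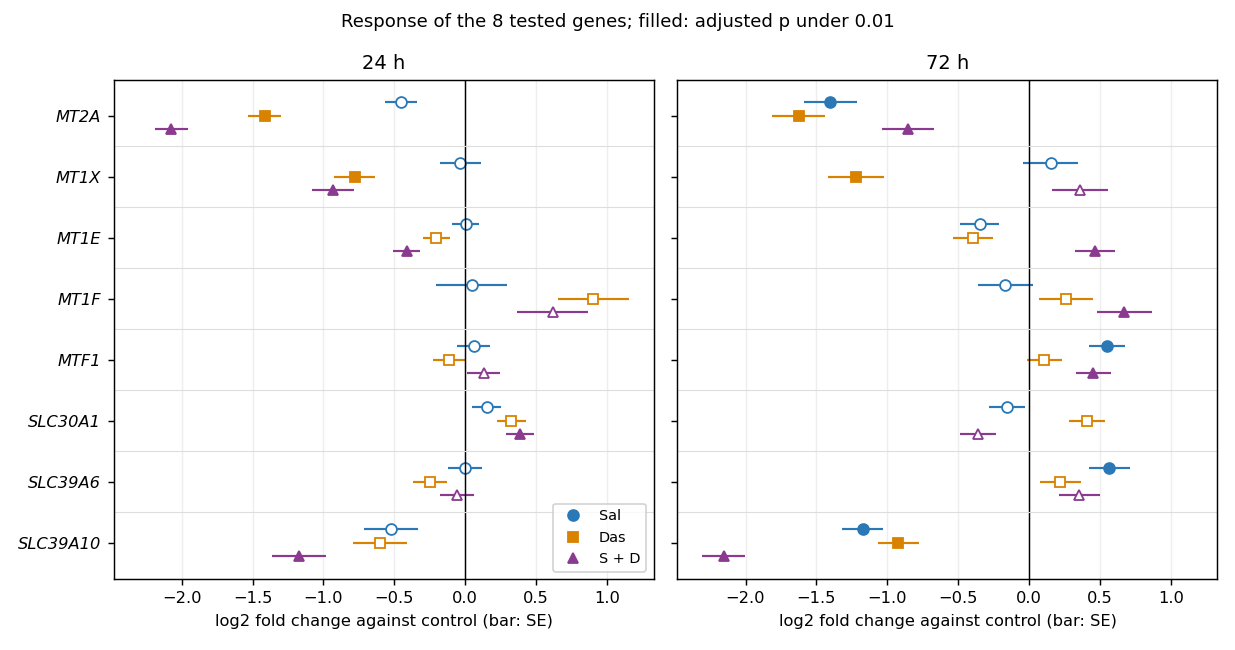
Log2 fold change against the control of the same time point (horizontal axis, bar: SE) for the 8 tested genes, at 24 h (left) and 72 h (right), with a marker shape and colour for each treatment and filled markers at an adjusted p under 0.01. MT2A lies left of 0 in all 6 comparisons, from -0.45 to -2.07, and SLC39A10 likewise, from -0.52 to -2.15.

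S + D was set against Sal alone, the comparison that asks what Das added. At 24 h the test called 3 of the 8 genes lower in S + D, and 0 higher, where it called 7.06% of all genes lower and 5.83% higher: MT2A by -1.62 ± 0.12 (adjusted p = 1.27e-07), MT1X by -0.90 ± 0.15 (adjusted p = 0.000399) and MT1E by -0.42 ± 0.10 (adjusted p = 0.00498). The call of MT1E was lost without any 1 of 5 libraries, Sal replicate 2 or 3 or S + D replicate 1, 2 or 3, at adjusted p values up to 0.0193. In the numbered libraries alone, 2 were higher and 4 lower, where 41.4% of all genes were called: MT1F (0.51 ± 0.09, adjusted p = 9.5e-05) and SLC30A1 (0.20 ± 0.06, adjusted p = 0.0094) were higher, and SLC39A10 (-0.66 ± 0.10, adjusted p = 4.19e-05) joined the 3 that were lower. With all libraries, those 3 and SLC39A10 did not overlap between the 2 groups, as was the case for 22% of all genes. At 72 h, 1 gene was higher and 1 lower, where 1.42% and 1.59% of all genes were. MT1E was higher by 0.81 ± 0.14 (adjusted p = 0.00161) and SLC39A10 lower by -0.98 ± 0.15 (adjusted p = 0.000691). MT2A, at 0.55 ± 0.19 (adjusted p = 0.0769), and MT1F, at 0.84 ± 0.19 (adjusted p = 0.012), were not called, although neither overlapped between the groups, as was the case for 16.4% of all genes. The numbered libraries alone gave a call for MT1F (0.86 ± 0.14, adjusted p = 0.00167), where 4.31% of all genes were called.

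The response to S + D was then set against the sum of the responses to Sal and to Das on the log2 scale, so that an interaction of 0 means a purely additive response. At 24 h edgeR called 0 of the 8 genes as different from the sum, where 0% of all genes were above and 0.0306% below it. At an unadjusted p under 0.05 it was 0 too, and 0 by DESeq2. The numbered libraries alone also called 0, where 5.09% of all genes were called. Over 7 other fits by edgeR or DESeq2, the interaction of MT2A ran from -0.393 to -0.202, with adjusted p values of 0.0393 or more. A gene that is not called is not thereby shown to respond additively. MT2A responded by -2.07 against a sum of -1.86 and SLC39A10 by -1.17 against -1.13. At 72 h, 3 of the 8 were above the sum and 0 below it, where 3.43% of all genes were above and 4.09% below. The 3 were metallothioneins. MT2A responded to S + D by -0.85 where the single responses add to -3.03, an interaction of 2.17 ± 0.26 (adjusted p = 8.22e-05). MT1X responded by 0.36 against a sum of -1.07 (interaction 1.43 ± 0.28, adjusted p = 0.00257), and MT1E by 0.47 against -0.75 (interaction 1.21 ± 0.20, adjusted p = 0.000833). For the summed metallothioneins the interaction was 1.80 ± 0.23 (adjusted p = 0.000129).

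The transporters and MTF1 were not called in this test at 72 h. SLC39A10 responded by -2.15 against a sum of -2.10, an interaction of -0.06 ± 0.21 (adjusted p = 0.874). SLC30A1 responded by -0.36 against a sum of 0.25, an interaction of -0.61 ± 0.18 (adjusted p = 0.0244), which was called with the numbered libraries alone (-0.77 ± 0.16, adjusted p = 0.00433). MTF1 (-0.20 ± 0.18, adjusted p = 0.464), SLC39A6 (-0.43 ± 0.20, adjusted p = 0.148) and MT1F (0.58 ± 0.27, adjusted p = 0.145) were not called.

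**Figure D5:**
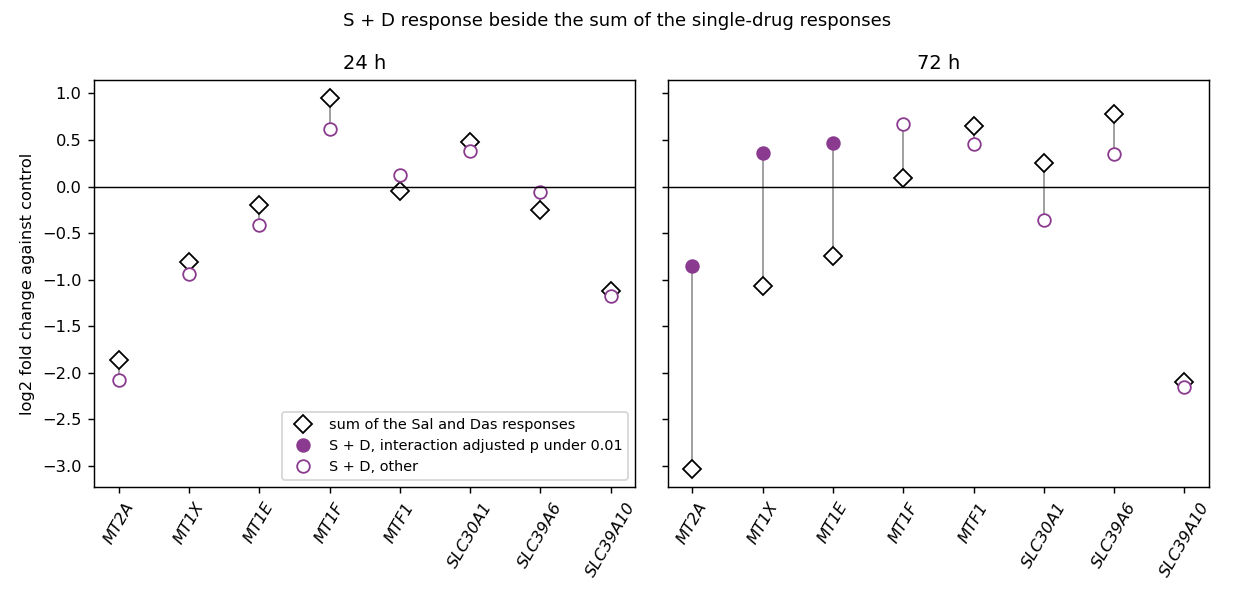
Log2 fold change of S + D against control (circles, filled where the interaction had an adjusted p under 0.01) beside the added single-drug values (Sal plus Das, open diamonds) for the 8 tested genes at 24 h (left) and 72 h (right), with a grey line joining each pair. No interaction is called at 24 h, while at 72 h MT2A, MT1X and MT1E lie above their sums, MT2A by 2.17.

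The time points were compared through the difference of each response. In the controls themselves, 0 of the 8 genes were called between 72 h and 24 h, where 2% of all genes were higher and 0.76% lower (4 of the 8 passed at an unadjusted p under 0.05, and DESeq2 called 0). In the numbered libraries alone, MT1F (0.60 ± 0.12, adjusted p = 0.00101), MT1X (0.53 ± 0.12, adjusted p = 0.00204) and SLC39A10 (0.55 ± 0.13, adjusted p = 0.00425) were higher at 72 h, where 11% of all genes were called. The response to Sal was lower at 72 h than at 24 h for 1 gene, MT2A (difference of log2 fold changes -0.94 ± 0.22, adjusted p = 0.00171), and higher for 0, where 13.7% and 8.21% of all genes were. Without the unnumbered libraries the Sal response of SLC39A10 was lower too (-0.82 ± 0.19, adjusted p = 0.000886) and those of MTF1 (0.54 ± 0.15, adjusted p = 0.00326) and SLC39A6 (0.60 ± 0.11, adjusted p = 9.71e-05) were higher, 4 of the 8 in all with MT2A, where that fit called 39.3% of all genes, a share close to theirs.

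The response to Das differed between the times for 0 of the 8 genes, where 0.0522% of all genes were higher and 0.174% lower. SLC39A6 alone passed at an unadjusted p under 0.05, and DESeq2 called 0. With the numbered libraries alone SLC39A6 was called (0.52 ± 0.11, adjusted p = 0.00482), where 3.56% of all genes were. The response to S + D was higher at 72 h for 3 genes and lower for 2, where 6.15% and 10.1% of all genes were. The 3 were MT1X (1.35 ± 0.26, adjusted p = 0.000298), MT2A (1.27 ± 0.23, adjusted p = 0.00013) and MT1E (0.93 ± 0.17, adjusted p = 0.000131), and the 2 were SLC39A10 (-0.93 ± 0.24, adjusted p = 0.00415) and SLC30A1 (-0.70 ± 0.16, adjusted p = 0.00157). The SLC39A10 difference was lost without S + D replicate 1 (adjusted p = 0.0108) or S + D replicate 3 (adjusted p = 0.0121) of 24 h. MT1F, at 0.11 ± 0.33, did not pass (adjusted p = 0.846), nor did SLC39A6, at 0.46 (adjusted p = 0.0688). With the numbered libraries alone, where 31.5% of all genes were called, 4 were higher and 2 lower, SLC39A6 (0.42 ± 0.11, adjusted p = 0.00353) being the addition.

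The rest of the 2 zinc transporter families gave a wider view. Of the other 9 ZnT genes, a family best known for moving zinc out of the cytosol, across the plasma membrane or into organelles, 7 were tested. At 24 h, 4, 2 and 6 of them were higher with Sal, Das and S + D, where 4.55%, 6.99% and 17.1% of all genes were, and 0 were lower. At 72 h, 5, 4 and 5 were higher, where 26.3%, 10.5% and 27% of all genes were, and 1 was lower with Sal. The median log2 fold change of these 7 was 1.28, 0.73 and 0.80 with Sal, Das and S + D at 72 h, against at most 0.02 over all genes. The numbered libraries alone gave 5, 4 and 6 higher at 24 h, where 23.5%, 39.3% and 58.1% of all genes were called in either direction, and 5, 5 and 5 at 72 h, where 57.3%, 22.6% and 57.8% were. SLC30A5, the ZnT5 subunit of a Golgi zinc transporter, was higher in all 6 comparisons, from 0.60 ± 0.10 with Das at 24 h (adjusted p = 0.000521) to 1.70 ± 0.20 with Sal at 72 h (adjusted p = 9.96e-07). SLC30A4 (ZnT4) was higher with Sal at 72 h by 2.47 ± 0.22 (adjusted p = 7.27e-08) and with S + D by 2.22 ± 0.21 (adjusted p = 1.44e-07). SLC30A3 was lower with Sal at 72 h, by -2.0 ± 0.34 (adjusted p = 5.74e-05), from a control level of 1.06 CPM. SLC30A1, whose values with Sal at 72 h overlapped the control, was not among the exporters that rose there.

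Of the other 12 ZIP genes 11 were tested, and they moved both ways. SLC39A1, among the 11, shares 69.1% of its exon bases with CREB3L4 and a further annotated gene, so its counts may hold reads of those. With Sal, Das and S + D, 4, 2 and 5 were higher at 24 h and 0, 0 and 3 lower, and 5, 5 and 6 were higher at 72 h and 4, 3 and 4 lower. The shares of all genes that were higher are those given for the ZnT genes, and the shares that were lower were 2.23%, 6.88% and 16.5% at 24 h and 26.8%, 9.36% and 27.9% at 72 h. The numbered libraries alone gave 5, 5 and 6 higher and 4, 3 and 4 lower at 72 h as well, and 5, 4 and 5 higher and 1, 3 and 4 lower at 24 h, where 10 were tested. SLC39A13 (ZIP13), which releases zinc from vesicles, was higher at 72 h by 1.83 ± 0.24 with Sal (adjusted p = 4.26e-06), 0.87 ± 0.24 with Das (adjusted p = 0.00945) and 1.86 ± 0.24 with S + D (adjusted p = 3.37e-06). SLC39A4 (ZIP4), the plasma membrane importer best known from the gut, was lower there by -1.07 ± 0.20, -1.04 ± 0.20 and -1.80 ± 0.20 (adjusted p = 0.000129, 0.000707 and 6.62e-07). SLC39A2 (ZIP2) was lower by -2.48 ± 0.46, -1.79 ± 0.44 and -2.95 ± 0.48 (adjusted p = 0.000145, 0.00468 and 3.34e-05), from only 2.21 ± 0.80 CPM in the 72 h control.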

How the data were processed

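RNA of MDA-MB-468 cells was sequenced by the authors as single-end reads of 50 bases from TruSeq libraries, and the submitters' processing notes name bcl2fastq 2.19, STAR 2.5.2, GRCh37, Cufflinks 2.1.1 and DESeq2, without giving the order of their use. The values deposited are unnormalized counts, whole numbers of reads for each Ensembl gene, for 48804 genes and 32 libraries, and 0 columns were left unmatched to a sample. The counting program, its annotation and its use of strand are not given in the sources used here. Symbols and GRCh37 coordinates came from GENCODE v44 lifted to GRCh37, which matched 46537 identifiers, and promoters from RefSeq, which listed 6 of the 10 genes (MT2A, MT1X, MTF1, SLC30A1, SLC39A6 and SLC39A10, the last with 2 starts).

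Counts were fitted with edgeR 4.0.16 in R 4.3.3 (TMM, filterByExpr with a minimum count of 10, quasi-likelihood test, Benjamini-Hochberg adjustment over all genes tested) and called at an adjusted p under 0.01. Each time point was fitted with its 16 libraries (16357 genes at 24 h, 16682 at 72 h), and differences between the times with all 32 (17227 genes). The SE printed with a log2 fold change was derived from the quasi-likelihood test, as the absolute log2 fold change over the square root of the F statistic. Library totals of 25692561 to 42769687 put 3 counts at 0.0705 to 0.113 CPM, a limit of counting only. The procedure was tested on simulated counts for Sal against control at 72 h. Far fewer genes were changed there than were called in these data, and the unnumbered libraries shared no deviation. The simulation therefore does not cover those features of the data. The members, lists and alternatives were chosen with earlier results of these data known. The text names all 10 members, the 3 genes of each list with the largest change at 72 h among those called with a group mean of at least 1 CPM, and the 5 genes whose log2 CPM (prior count 2) was most like the metallothioneins and SLC39A10.

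The alternatives were DESeq2's size factors (RLE), no filter, DESeq2 1.42.0 with its own test, other thresholds, a replicate block, a batch term for the unnumbered libraries, the numbered libraries alone, other sets of libraries in the fit, the metallothioneins summed and each library left out in turn. FPKM values and aligned reads were not used here. Some marker genes checked are not reported here.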

Additional observations from a re-analysis of the deposited data

Results flagged for a closer look

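In 8 of 64 groups of 4 libraries, 1 library stood far from the other 3 (its gap to the nearest of them, over the group's range, passed Dixon's 95% limit), where chance alone would mark about 1 in 20 groups, or 3.2 of these. With S + D at 24 h, the unnumbered library was the highest for MT1E (14.5 CPM, the others 12.6 to 12.8), MT1F (35.4, the others 18 to 19.3), MT1X (56.2, the others 39.1 to 39.8) and MTF1 (150 CPM, the others 134 to 135). The unnumbered library was also the highest for MT1F with Das at 72 h (40.4 CPM, the others 21.2 to 24.3) and the lowest for MTF1 in the 24 h control (112 CPM, the others 133 to 137). S + D replicate 1 at 72 h was the highest for MT1E (32.2 CPM, the others 21.5 to 22.9) and the lowest for SLC30A1 (44.4 CPM, the others 54.1 to 54.3). In 6 of these 8 groups the library set apart is an unnumbered one. What part that set of libraries has in the values was not tested beyond the fits without it, with a batch term for it or with a replicate block.

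The response to a treatment differed between 24 h and 72 h, by edgeR's quasi-likelihood test of the difference itself, for MT2A with Sal (-0.94 on the log2 scale) and, with S + D, for MT1E (0.93), MT1X (1.35), MT2A (1.27), SLC30A1 (-0.70) and SLC39A10 (-0.93). The same difference between the times with S + D was 0.11 ± 0.33 for MT1F, 0.38 ± 0.17 for MTF1 and 0.46 ± 0.19 for SLC39A6, none of them called with all libraries.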

How the results depend on the processing

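Counts of called genes are out of the 8 tested. With the added limit of an absolute log2 fold change above 1.5, the counts were 0 for Das at 24 h (2 by adjusted p alone), 1 for S + D at 24 h (5), 0 for Sal at 72 h (4), 1 for Das at 72 h (3), 1 for S + D at 72 h (5), 1 and 0 for S + D against Sal at 24 h and 72 h (3 and 2), 1 for the interaction at 72 h (3), 0 for the Sal response between times (1) and 0 for that of S + D (5). At an adjusted p under 0.05 they were 1 for Sal at 24 h (0 at 0.01), 5 for Das at 24 h, 5 for Das at 72 h and 4 for the Sal response between times. With the numbered libraries alone they were 2, 7 and 6 for Sal, Das and S + D against Sal at 24 h, 4 and 1 for the Sal and Das responses between times and 3 for the controls between times (0 with all libraries). That fit called 23.5%, 39.3%, 41.4%, 39.3%, 3.56% and 11% of all genes, in the same order. A batch term for the unnumbered libraries gave 2, 6, 5, 4, 1 and 1 in the same order. For the other settings of this section the share of all genes called was not computed. A rise in their counts can therefore not be set against that of all genes. DESeq2 gave 1 for Sal at 24 h. All 32 libraries in 1 fit gave 4 for Das at 24 h and 5 for Das at 72 h, and only the groups compared gave 3 for the Sal response between times and 1 for the controls. RLE size factors and no filter moved none of these counts by over 1.5 times, but no filter ended the calls of MT1E (S + D at 72 h, and S + D against Sal at 24 h) and SLC30A1 (S + D at 24 h), only the groups compared those of MT1E in the same comparisons and of MTF1 (S + D at 72 h), and all 32 libraries in 1 fit those of MT1F (S + D at 72 h) and SLC30A1 (S + D at 24 h).

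The replicate block gave 2, 6 and 5 for Sal, Das and S + D against Sal at 24 h, 3 for the Sal response between times and 1 for the controls. The numbers did not pair the samples: centred on the numbered libraries, same-numbered libraries of different groups correlated across genes by -0.11 to 0.11 at 24 h and -0.23 to 0.08 at 72 h, and no number is tied to a shared culture or day in the labels.

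With the metallothioneins summed as 1 feature, values opposite in sign to that of the single gene were -0.37 (MT1E and MT1F with Sal at 24 h), -1.15 (MT1F with Das at 24 h), -1.65 (MT1F with S + D at 24 h), -0.83 (MT1X with Sal at 72 h), -1.35 (MT1F with Das at 72 h), -0.38 (MT1E, MT1F and MT1X with S + D at 72 h), -1.29 (MT1F in S + D against Sal at 24 h), -0.48 (MT1X, Sal response between times) and -0.17 (MT1F and MT1X, controls between times). With 1 library left out in turn, the counts ran from 2 to 3 for Das and 4 to 5 for S + D at 24 h, 3 to 4 for Sal, 3 to 3 for Das and 3 to 4 for S + D at 72 h, 2 to 4 and 2 to 3 for S + D against Sal, 3 to 4 for the interaction at 72 h, 1 to 2 for the Sal response and 4 to 5 for the S + D response between times, and 0 to 0 elsewhere. The count of S + D at 72 h, 5 with all libraries, was 3 without the unnumbered control library, control replicate 2 or S + D replicate 1, and that of the Sal response was 2 without the unnumbered Sal library of either time. The cause of these shifts was not tested.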

Other observations

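Genes that share stimuli with the metallothioneins are given beside the shares of all genes called at 72 h, 26.3% higher and 26.8% lower under Sal, 10.5% and 9.36% under Das, and 27% and 27.9% under S + D. At 72 h, Sal raised 1 and lowered 3 of 5 tested glucocorticoid receptor targets, Das raised 0 and lowered 2, and S + D raised 0 and lowered 3. SGK1, a kinase induced by glucocorticoids, was lower by -2.47 ± 0.31 with Sal (adjusted p = 2.59e-06), -1.93 ± 0.30 with Das (adjusted p = 0.000149) and -2.70 ± 0.31 with S + D (adjusted p = 9.99e-07). FKBP5, a chaperone of the glucocorticoid receptor, was lower by -1.69 ± 0.24, -0.88 ± 0.24 and -2.17 ± 0.25 (adjusted p = 1.1e-05, 0.00862 and 7.85e-07). PER1, a clock gene, was higher with Sal alone, by 1.97 ± 0.20 (adjusted p = 2.41e-07), and stood at -0.36 ± 0.19 with Das and 0.36 ± 0.19 with S + D (adjusted p = 0.162 and 0.104).

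Of 10 genes, heat shock genes and HMOX1, Sal raised 1 and lowered 3 at 72 h, Das raised 0 and lowered 1, and S + D raised 2 and lowered 1, fewer calls in all than these shares would give among 10. HSPB1, a small heat shock protein, had values in the order of MT2A at 72 h, at 194 ± 32.7 CPM in control, 93.9 ± 46.2 in Sal, 63 ± 16.1 in Das and 130 ± 24.8 in S + D libraries, with log2 fold changes of -1.06 ± 0.26, -1.63 ± 0.26 and -0.59 ± 0.25 (adjusted p = 0.00155, 0.000188 and 0.049). HMOX1, heme oxygenase, was lower with Sal by -1.09 ± 0.26 (adjusted p = 0.00157) and stood at 0.50 ± 0.26 with S + D (adjusted p = 0.101). HSPA6, an inducible HSP70, reached 0.855 ± 0.208 CPM with Sal and 1.14 ± 0.219 with S + D against 0.0269 ± 0.0539 in the 72 h control, at counts near 0 in the control, so no fold is given. Of 8 copper genes at 72 h, Sal raised 4 and lowered 3, Das raised 1 and lowered 1, and S + D raised 3 and lowered 3. SLC31A1, the plasma membrane copper importer, was higher by 1.51 ± 0.17, 0.73 ± 0.16 and 1.32 ± 0.17 (adjusted p = 6.84e-07, 0.00278 and 2.37e-06), and ATOX1, a copper chaperone, was lower by -0.78 ± 0.20, -0.85 ± 0.20 and -0.96 ± 0.20 (adjusted p = 0.00194, 0.00317 and 0.000348). SLC31A2 was lower with Sal and S + D, by -1.10 ± 0.21 and -1.21 ± 0.21 (adjusted p = 0.000147 and 5.98e-05), but shares 64% of its exon bases with FKBP15.

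Among 13408 genes, those whose log2 CPM over the 32 libraries was most like the mean of the 4 metallothioneins were EEPD1 (Pearson r = 0.89), SHISA5 (0.858), LIMK1 (0.85), PSMB9 (0.842) and PSMB8-AS1 (0.839). That mean is not a pattern shared by all 4 genes. MT1F correlated by -0.34 with MT2A, 0.06 with MT1X and 0.24 with MT1E, while MT1E, MT1X and MT2A correlated with one another by 0.43 to 0.65. EEPD1 stood at 10.4 ± 1.10 CPM with S + D at 72 h against 3.74 ± 1.08 in Sal, 2.76 ± 0.96 in Das and 6.26 ± 0.92 in control libraries. Those most like SLC39A10 were STS (0.948), SLC1A3 (0.945), MAP3K20 (0.936), ARHGAP29 (0.934) and CCDC160 (0.933). SLC1A3, a glutamate transporter, measured 262 ± 34.5 CPM in the 72 h control and 38.9 ± 3.98 with S + D. The points share treatment groups, libraries and depth, so these values are descriptions.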
